A study of Mus musculus with 2 samples.

Results

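The Hsd3b genes encode the 3 beta-hydroxysteroid dehydrogenases. Their signals were compared between collecting duct cells of wild-type (WT) mice and of mice bred to lack the transcription factor gene Gata2 in renal tubules (Gata2 CKO). The family was taken by gene name, as every probe whose name in the array files was Hsd3b1, Hsd3b2, Hsd3b3, Hsd3b4, Hsd3b5, Hsd3b6 or Hsd3b7. These 7 genes had 10 probes. The array held 19696 named genes and 41174 probes, those without a gene name included. The family was chosen by the measured difference between these arrays, in which a probe of Hsd3b2 stood highest, so its differences are given as descriptions with no test. At least 1 array was well above background at 6 of the 10 probes, which belong to 4 of the 7 genes.

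Both groups were mice of 8 weeks, of sex given as mixed, and the doxycycline treatment of 4 weeks from an age of 4 weeks stands in the labels of both. The CKO mice had the genotype Gata2flox/-::Pax8-rtTA::Tet-Cre. By design, Pax8-rtTA and Tet-Cre recombine the floxed allele in renal tubules, so that recombined tubule cells have neither allele. The null allele leaves the other cells of these mice with 1 allele. How complete the deletion was is not shown here. The WT label gives no transgene, so that an effect of rtTA, Cre or the null allele cannot be told apart from that of the tubular deletion. Collecting duct cells, which line the last segment of the nephron, were purified with the lectin DBA and magnetic beads, and their RNA was hybridised to 1 one-colour array per genotype. By the design text 3 mice of each genotype were used, and the arrays are named as mixtures, but no label says that RNA of several mice was pooled. With 1 array per genotype there is no replicate, no test across mice and no p-value.

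The enzymes of this family turn hydroxysteroids into ketosteroids, a step that every active steroid hormone passes through on its way from cholesterol. In the mouse, Hsd3b1 serves the adrenal and the gonads and Hsd3b6 the adrenal and Leydig cells. Hsd3b2 and Hsd3b3 are known from liver and kidney, Hsd3b4 from kidney, and Hsd3b5 from male liver. Hsd3b4 and Hsd3b5 act as ketosteroid reductases rather than as makers of hormone. Hsd3b7 is a more distant relative that works on sterols in bile acid synthesis. The cells of the collecting duct are better known for receiving steroid signals, above all aldosterone, than for making steroids.

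Because members of the family resemble each other, the probe sequences are given first. The Hsd3b2 probe at transcript position 667, at chr3:98516103-98516162 of mm9 on the minus strand, overlaps the Hsd3b6 probe at position 733, at chr3:98610436-98610495 on the same strand, when the sequences are lined up. They are shown whole, 5′ to 3′, with the mismatched bases of the overlap in capitals.
Hsd3b2, position 667: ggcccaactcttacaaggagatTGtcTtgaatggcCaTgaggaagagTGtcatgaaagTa
Hsd3b6, position 733: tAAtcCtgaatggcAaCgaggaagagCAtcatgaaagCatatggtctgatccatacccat
The overlap covered 39 bases with 8 mismatches, an identity of 79.5%, and the longest run without a mismatch was 9 bases. Of the 45 pairs of member probes it was the only 1 with at least 75% identity, and the next pair reached 54.1%. No member probe shared more than 15 bases in a row with any other sequence on the array. These comparisons were between probes only, and no probe was compared with the transcripts of other members. Probes at different positions need not resemble each other even where the transcripts do. Whether a probe reads only its own gene was therefore not tested.

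The other probes that carry the differences are shown by their first 30 of 60 bases, 5′ to 3′, because their place in the gene, coding or untranslated, was not analysed here.
Hsd3b2, position 1671: ttcaaaacatgtatagccttcagaaaattc
Hsd3b2, position 2543: ggaaactgtctttaacaatgctctgttctt
Hsd3b4, position 1536: cttgtaggttagaatttcatcagggcttcc
Hsd3b5, position 1258: ccctgggtgttatcaggtcctccagagagg
Hsd3b7, position 1611: ctggctctccttaaggggttatagtttcac
On mm9 these lie at chr3:98515099-98515158, chr3:98514270-98514329, chr3:98303072-98303131 and chr3:98422848-98422907 on the minus strand, and at chr7:134947105-134947164 on the plus strand.

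Hsd3b2, an enzyme of the kidney and liver, was higher in the CKO cells at all 3 probes that carry its name in the array files. No other gene of the family had a measured probe at least 2-fold higher. Hsd3b4 and Hsd3b5 were lower by 1 probe each, Hsd3b7 was nearly level, and Hsd3b1, Hsd3b3 and Hsd3b6 were well above background on neither array. Counted by probe, 3 of the 6 measured probes were at least 2-fold higher, where 1.37% of the 26861 measured probes of the array were, and all 3 belonged to Hsd3b2. At least 2-fold lower were 2 of the 6, against 2.49% of all probes. Since this contrast chose the family, nothing is read from these shares.

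Each difference is a log2 value of the CKO array minus that of the WT array, both taken relative to the 75th percentile signal, which was 314 for WT and 250.1 for CKO. The ± value is the scanner software's error of the spots, combined over both arrays, and covers neither mice nor purification nor labelling. Signals are the scanner's processed signals in arbitrary units, before that scaling. A spot could be called well above background from a signal of 12.04 (WT) or 11.6 (CKO), while the median of the 153 negative controls was 2.67 and 2.53. Signals of different probes depend on their sequence, so no probe's level is set against another's. The median difference of the 25085 probes measured on both arrays was 0.06. The probes of Gata2 itself differed by −0.37 ± 0.20 and −0.32 ± 0.20. Whether they lie in the deleted part is not stated in these sources, so they check nothing about the deletion.

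**Figure D1:**
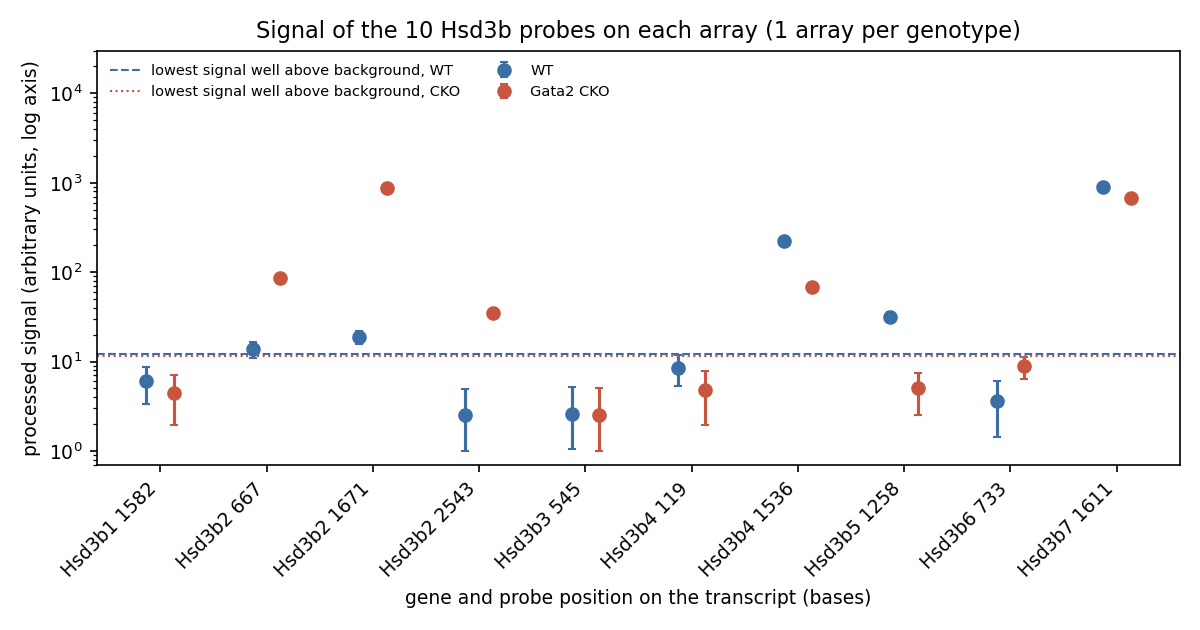
Processed signal of the 10 Hsd3b probes on the WT (blue) and CKO (red) array, on a log axis in arbitrary units, with bars for the scanner's spot error (shortened at the lower end for the dimmest spots so that they stay on the axis) and lines at the lowest signal well above background. The 3 Hsd3b2 probes read 13.7, 18.8 and 2.50 for WT against 85.9, 866 and 34.6 for CKO, while the Hsd3b4 probe at position 1536 goes from 220.4 to 67.4.

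The probe of Hsd3b2 at position 1671 read 18.8 for WT and 866 for CKO, with spot errors of 3.21 and 86.6. The WT signal is close to the lowest signal called well above background, and the CKO signal is far above it. After scaling the difference was 5.85 ± 0.29, or 57.9-fold, and before scaling the ratio of the signals was 46.1. With normexp background correction it was 3.85 on the log2 scale. It was the highest of the 25085 probes measured on both arrays. The mean pixel signal of the spots before background subtraction was 52.3 and 951, so the difference is also present without the subtraction.

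The probe at position 667 read 13.7 for WT and 85.9 for CKO, a difference of 2.98 ± 0.34 or 7.90-fold, and of 1.25 with normexp correction. It stood at rank 5 of the 25085 probes. Its mean pixel signal was 48.2 over 67 pixels for WT and 125 over 64 pixels for CKO. Both probes thus place Hsd3b2 near background in WT cells and clearly above it in CKO cells.

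The probe at position 2543 read 2.50 on the WT array, where 128 of the 153 negative controls were as bright or brighter, and 34.6 on the CKO array, where 0 of them were. Because the WT signal was not well above background, the fold can only be given as a bound against the lowest signal that was: at least 3.61-fold higher, or 1.85 on the log2 scale. The direction is that of the other two Hsd3b2 probes. With normexp correction the value was 0.85, short of 2-fold, which leaves 2 of the 6 probes at least 2-fold higher.

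The 3 probes share a direction but not a size. Those at positions 667 and 1671 are listed for 3 transcript accessions in common and lie 1004 bases apart both on the transcript and on the genome, so no intron separates them. Their differences were nonetheless 2.87 apart on the log2 scale, far beyond the spot errors. A range between probes as large was seen in 12 of the 5277 genes with at least 2 probes measured on both arrays, Hsd3b2 included. The pooled standard deviation between probes of a gene, the square root of the mean variance over the 5277 genes, was 0.27. Probes printed 10 times had a pooled standard deviation of the difference of 0.33 at signals of 12 to 50 and of 0.07 at 200 to 1000. The probe at position 2543 shares 0 accessions with either and lies 829 bases from the probe at 1671 on the genome. Of its own accessions 0 are from RefSeq, so only the name in the array files ties it to Hsd3b2. What makes the sizes differ was not tested, and the size of the Hsd3b2 difference is therefore less certain than its direction.

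**Figure D2:**
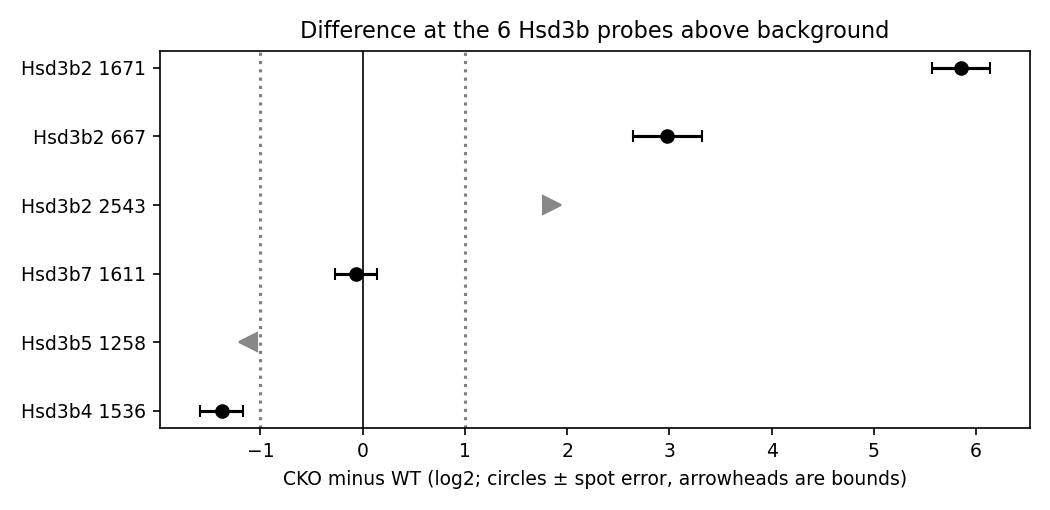
CKO minus WT difference on the log2 scale of the 6 measured Hsd3b probes, with circles and bars for the value and spot error of the 4 measured on both arrays and arrowheads for the 2 bounds; dotted lines mark 2-fold. The circles of Hsd3b2 stand at 5.85 and 2.98 without overlapping bars, Hsd3b7 at −0.07 and Hsd3b4 at −1.38.

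Hsd3b4, the ketosteroid reductase of kidney, read 220.4 for WT and 67.4 for CKO at position 1536, with spot errors of 22.2 and 7.16. The difference was −1.38 ± 0.21, or 2.60-fold lower, which leaves 38.4% of the WT level after scaling. It had rank 286 from the lowest of the 25085 probes. The second Hsd3b4 probe, at position 119, read 8.52 and 4.81 and was well above background on neither array, so it neither repeats nor opposes that difference. This dim probe is listed for Gm4450 too, and the RefSeq table gives Hsd3b4 as another name of Gm10681. The probe at position 1536 is listed for Hsd3b4 only, but was not compared with the sequences of such copies. Signal from near-identical copies could therefore not be separated from that of Hsd3b4. With normexp background correction the value at position 1536 was −0.88, short of 2-fold.

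Hsd3b5, known from male liver, read 31.7 for WT and 5.0 for CKO, with 0 and 2 of the 153 negative controls as bright or brighter. Only the WT spot was well above background, so the CKO cells were at least 2.18-fold lower. That is little more than 2-fold, and with normexp correction the value was −0.29. In bulk RNA, fewer cells of a type and less RNA per cell cannot be told apart, for this gene and for every other here.

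Hsd3b7, the sterol dehydrogenase of bile acid synthesis, was bright on both arrays, at 897 and 681 with spot errors of 89.8 and 68.1. After scaling the difference was −0.07 ± 0.20, so the CKO level was 95.4% of the WT level and the difference was within the spot error. It is the member outside the chromosome 3 cluster.

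Hsd3b1, the form of adrenal and gonad, read 6.07 and 4.49 on the WT and CKO array. Hsd3b3 read 2.62 and 2.51, below the signal of 90 and 82 of the 153 negative controls. Neither gene was detectable on these arrays, which does not show that its RNA was absent. Hsd3b6 read 3.59 on the WT array, with 4 negative controls as bright or brighter, and 8.85 on the CKO array, with 0. Both signals were below the lowest signal called well above background, so no fold is given. With no filter on dim probes its difference would be 1.63, and the number of probes at least 2-fold higher 4 in place of 3. This probe is the 1 that resembles the Hsd3b2 probe at position 667, and whether Hsd3b2 RNA contributed to its CKO signal was not tested.

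The genes whose difference came nearest to that of the highest Hsd3b2 probe, among named genes measured on both arrays, were Edn3, Mid1 and Celf3. Edn3, which encodes endothelin 3, went from 33.2 to 406, a difference of 3.94 ± 0.23 and 1.91 away from Hsd3b2. Mid1 and Celf3 differed by 2.90 ± 0.20 and 2.83 ± 0.33. Likeness over 2 arrays is only nearness of 1 difference.

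Of the family, 6 genes with 9 probes form a cluster of 353 kb on chromosome 3. Its measured genes did not share a direction: Hsd3b2 was higher, and Hsd3b4 and Hsd3b5 on 1 side of it were lower. On the other side the probes of Hsd3b3, Hsd3b6 and Hsd3b1 were not well above background, so their direction is not known. Within 500 kb of the cluster lay 24 further probes, 15 of them measured. Of these, 1 was at least 2-fold higher, where the array had 1.37%, and 0 were at least 2-fold lower. The higher 1 is a probe with no gene name at chr3:98557531-98557590 on the plus strand, between the Hsd3b3 and Hsd3b6 probes and 41.4 kb from Hsd3b2, which read 13.8 for WT and 31.1 for CKO, a difference of 1.5 ± 0.35. The nearest named genes on either side were Hao2, a hydroxyacid oxidase, with 117 and 110.3 and a difference of 0.24 ± 0.21, and Zfp697, a zinc finger gene that read 17.9 and 13.1 and passed the background call with WT RNA only. The probes of Phgdh, of serine synthesis, gave 0.08, −0.47 and −0.58, those of Notch2 −0.06, −0.02 and −0.11, and those of Wars2 0.33, 0.02 and 0.25.

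**Figure D3:**
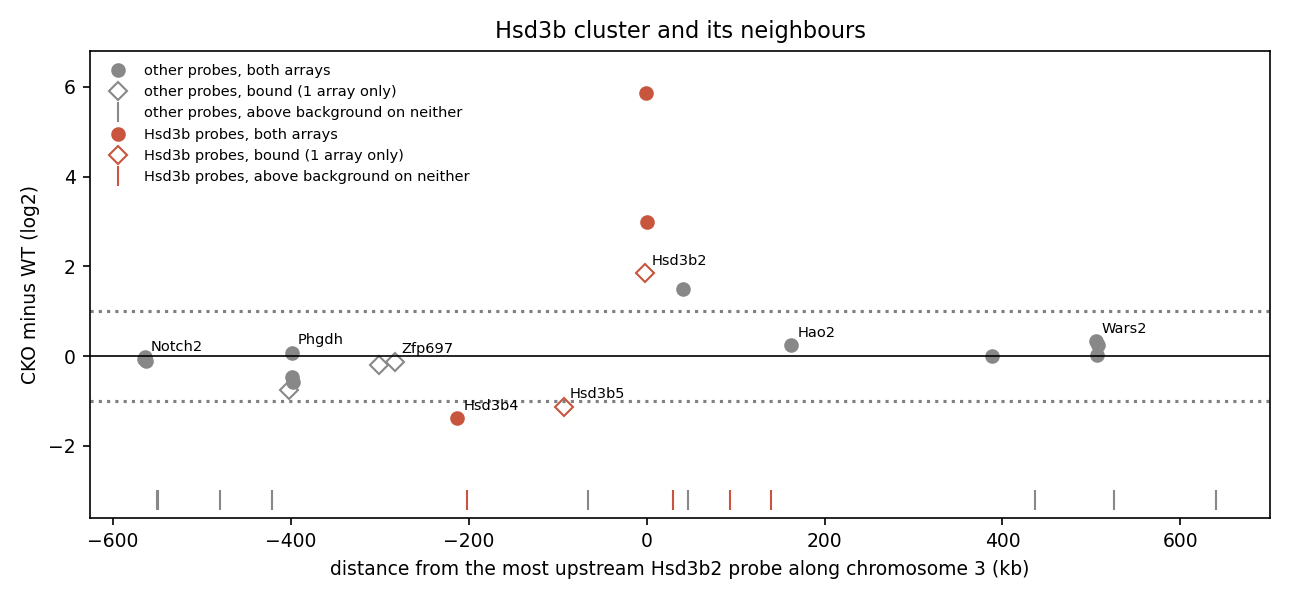
CKO minus WT difference on the log2 scale against distance in kb from the Hsd3b2 probe at position 667 along chromosome 3, for Hsd3b probes (red) and their neighbours (grey), with filled circles for probes on both arrays, open diamonds for bounds and ticks at the bottom for probes above background on neither; genes named in the text are labelled. The Hsd3b2 probes stand at 1.85 to 5.85 while the neighbours, apart from an unnamed probe at 1.5, lie between the dotted lines of 2-fold.

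Windows of 250 bases upstream of the annotated starts were read from RefSeq (GRCm38.p6), which held 9 windows for all 7 members. The window of Hsd3b2 is shown as that of the gene that was higher, and that of the more upstream start of Hsd3b4 as that of a gene that was lower and holds a GATA motif, in capitals.
Hsd3b2, chr3:98724544-98724793, minus strand: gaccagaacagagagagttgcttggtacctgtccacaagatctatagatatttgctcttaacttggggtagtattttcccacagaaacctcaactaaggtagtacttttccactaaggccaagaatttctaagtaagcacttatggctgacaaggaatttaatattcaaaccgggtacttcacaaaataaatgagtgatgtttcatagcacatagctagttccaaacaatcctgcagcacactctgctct
Hsd3b4, chr3:98510568-98510817, minus strand: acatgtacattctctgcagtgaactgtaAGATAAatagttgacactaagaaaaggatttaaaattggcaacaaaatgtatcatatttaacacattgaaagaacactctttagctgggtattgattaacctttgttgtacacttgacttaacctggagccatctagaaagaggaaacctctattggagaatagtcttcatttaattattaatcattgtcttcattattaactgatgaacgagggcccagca
The GATA motif was searched as AGATAA or AGATAG and as TGATAA or TGATAG on both strands. It was found in 5 of the 9 windows, belonging to 4 of the 7 members, where 26.5% of the 32851 RefSeq windows of that length held it. Hsd3b1 had 2 matches, both windows of Hsd3b3 had 1, Hsd3b4 had 1 at 222 bases before its upstream start, and Hsd3b6 had 1 at 31 bases before its start. The windows of Hsd3b2, Hsd3b5 and Hsd3b7 held none of these letters, and neither did that of the other Hsd3b4 start, which is not shown. The motif AAGGTCA, which the steroidogenic factor Nr5a1 is known to bind, was in 0 of the 9 windows and in 4.08% of all. A match is a match of letters only, and binding was not measured.

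Hsd3b2 was higher without a like difference in the other genes of steroid hormone synthesis. Of the 17 genes of this pathway on the array, 10 were measured, 6 of them higher and 4 lower, and 0 were at least 2-fold higher. Their median was 0.03, beside 0.02 over all 14238 measured genes, of which 1.26% were higher by 2-fold or more and 3.30% lower. These counts are relative to the scaling: with scaling on spike-in controls the median of all probes moves to −0.49 and every list median falls with it. Star, which carries cholesterol to the first enzyme, gave 0.08 ± 0.25, with signals of 38.1 and 32.0. Cyp17a1, the hydroxylase and lyase on the way to androgens, read 2398 and 2796, a difference of 0.55 ± 0.20. Srd5a1, a steroid reductase, was the only 1 at least 2-fold apart, at −1.39 ± 0.20, while another probe of it gave −0.84. Cyp11a1, the enzyme that opens the pathway, was well above background on neither array, nor were Cyp21a1, Cyp11b2, Cyp19a1, Hsd17b1, Hsd17b3 and Srd5a2.

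Other hydroxysteroid dehydrogenases and aldo-keto reductases, the enzymes that do like chemistry with other folds or positions, were split evenly. Of 23 on the array 14 were measured, 7 higher and 7 lower, with 0 at least 2-fold apart in either direction and a median of 0.01. Akr1c21 was lowest at −0.99, Hsd11b2, which shields the mineralocorticoid receptor from glucocorticoids, stood at −0.61, and Hsd17b11 was highest at 0.60. Relatives that share the fold of the Hsd3b enzymes had 4 measured genes of 5 on the array, 2 higher and 2 lower, with Nsdhl at 0.17, Tgds at −0.29 and Sdr42e1 at −0.04. A difference like that of Hsd3b2 was thus not seen among the enzymes closest to it in chemistry or in fold.

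Of 13 genes of steroid conjugation and release on the array 9 were measured, 8 lower, 0 higher and 1 with a bound of 0, with a median of −0.27, and 2 were at least 2-fold lower. Ugt2b5, a glucuronosyltransferase, read 54.0 for WT and 5.80 for CKO and was at least 3.72-fold lower, and its relative Ugt2b38 gave −1.12 ± 0.24. Sult2b1, a sulfotransferase, gave −0.01 ± 0.21. Proximal tubule markers had a like median of −0.28, with 14 of 17 lower, and Slc22a8 is in both lists. Their part in the lower conjugation genes was not tested. Of 24 steroid receptors and regulators of steroidogenic genes 17 were measured, 9 higher and 8 lower, with a median of 0.01. In that list Nr4a1, an orphan receptor of the immediate early kind, was the only gene at least 2-fold apart, at −1.06 ± 0.20. Nr5a1 gave 0.01 ± 0.30 at signals of 24.9 and 19.9.

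Around Hsd3b7, 11 of 16 bile acid synthesis genes were measured, 5 higher and 6 lower, with a median of −0.02 and 0 at least 2-fold apart. Ch25h, a cholesterol hydroxylase, gave −0.66, Slc27a2 −0.44 and Cyp27a1 −0.43. Cyp7a1, the rate-limiting enzyme of bile acid synthesis, was well above background on neither array, nor were Cyp8b1, Akr1d1, Slc27a5 and Baat. Of cholesterol synthesis all 23 genes were measured, 15 higher and 8 lower, with a median of 0.06. None was at least 2-fold apart, and Hsd17b7 gave 0.42 and Pmvk 0.34.

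**Figure D4:**
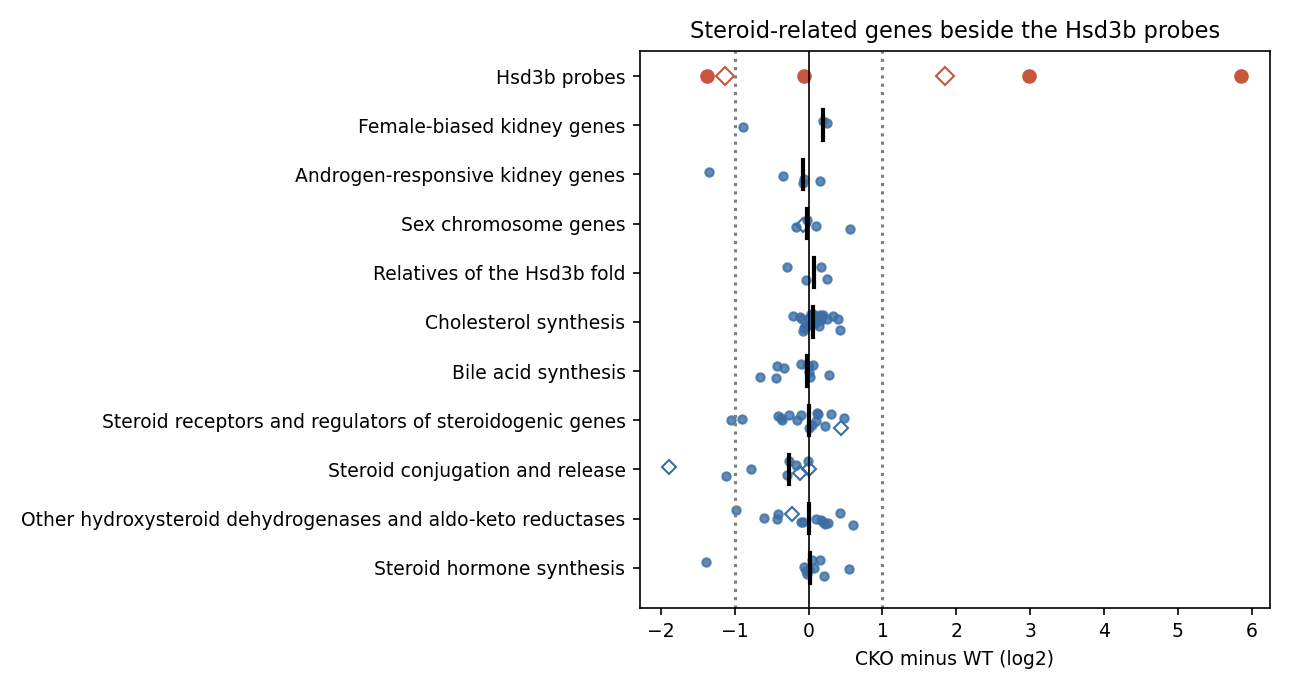
CKO minus WT difference on the log2 scale of the 6 measured Hsd3b probes (top row, red) and of the measured genes of 10 lists (blue, 1 point per gene), with open diamonds for bounds, thick bars for the list medians and dotted lines at 2-fold. No list gene lies to the right of the 2-fold line, while 3 Hsd3b2 probes do, and the list medians run from −0.27 to 0.20.

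Several members of the family are known to differ between the sexes, and both groups were of mixed sex. The sex chromosome genes gave a median of −0.02 over 5 genes, with Eif2s3y at 0.56, Ddx3y at −0.17 and Xist at 0.10, with its probes from −0.05 to 0.55. Of 7 androgen-responsive kidney genes 5 were measured, 1 higher and 4 lower, with a median of −0.08, or −0.35 when probes of a gene were averaged. The higher 1 was Cyp2j13, at 0.15, another probe of which gave −1.52. Kap, the kidney androgen-regulated protein, gave −0.08 and Cyp4b1 was at least 2-fold lower at −1.34. Of 4 female-biased kidney genes 3 were measured, Cyp4a14 at −0.89, Hao2 at 0.24 and Prlr at 0.20, with another probe of Prlr at 1.17. The part of the sex of the mice in the Hsd3b2 difference was not tested.

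The adrenal gland lies next to the kidney and is rich in this enzyme family, so markers of its cells were read beside Hsd3b2. Of 8 adrenal cortex markers 4 were measured, 3 higher and 1 lower. The summed signal of all 8, dim ones included and before scaling, was 320 for WT and 270 for CKO. Akr1b7 was at least 2.72-fold higher, from 9.44 to 26.1. Mc2r, the receptor for corticotropin, read 222 and 174, a difference of −0.02 ± 0.21, and Star and Nr5a1 were measured too, with the values above. Cyp11a1, Cyp21a1, Cyp11b2 and Mrap, which define the steroid-making cortex, were well above background on neither array, and neither was Hsd3b1, the adrenal form. The part of adrenal cells in the Hsd3b2 difference was not tested. Of 5 markers of the medulla Dbh and Pnmt were measured, at 0.27 ± 0.35 and 0.13 ± 0.29. Before scaling, Dbh read 18.7 for WT and 17.9 for CKO, and Pnmt 25.3 and 22.0. Th, Chga and Chgb were well above background on neither array. The summed signal of all 5, these dim ones included, was 55.8 for WT and 57.7 for CKO. Of 5 markers of steroid cells of the gonads only Cyp17a1 was measured, with Lhcgr, Fshr, Cyp19a1 and Amh on neither. Of 9 hepatocyte markers 8 were well above background on neither array, Alb and Apoa1 among them, and Tat gave 0.15.

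Markers of other cells differed between the 2 arrays, and with 1 array per genotype this cannot be told apart from a difference of mice or purification. Of 19 proximal tubule markers 17 were measured, 14 lower and 3 higher, with a median of −0.28, and Lrp2 and Slc3a1, the uptake receptor and an amino acid transporter subunit of that segment, were lower at −1.58 and −1.15, with the 4 probes of Lrp2 running from −1.58 to −0.26. The summed signal of all 19, dim ones included and before scaling, was 7475 for WT and 4985 for CKO. The part of proximal tubule cells in the Hsd3b2, Hsd3b4 and Hsd3b5 differences was not tested. All 8 macrophage markers were lower, with a median of −0.88 and a summed signal of 29234 and 10632, led by Cd5l at −3.57, Itgam at −1.47, with another probe at −0.74, and Lyz2 at −1.26. Of the collecting duct itself, 8 of 9 intercalated cell markers were higher, with a median of 0.66 and Atp6v1b1, a proton pump subunit, at 1.94. Lower were 9 of 10 principal cell markers, with a median of −0.36. The summed signal was 133426 for WT and 127732 for CKO for intercalated cells, and 363946 and 241669 for principal cells. Summed signals are before scaling and the CKO array was dimmer, so they cannot be set against the scaled differences. The part of a shift between these 2 cell types in the Hsd3b2 difference was not tested.

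Under 10 ways of processing, the Hsd3b2 probes stayed higher and those of Hsd3b4 and Hsd3b5 lower wherever a value could be had. Leaving out saturated spots and keeping outlier spots changed none of these values. A filter on both arrays leaves no value for Hsd3b5 and the Hsd3b2 probe at position 2543. Normexp background correction, which adds an offset of 50 and so draws dim probes together, moved the Hsd3b2 probes at positions 1671 and 667 most. Under it 0 of the 6 probes were at least 2-fold lower, where the array had 0.283% higher and 0.856% lower.

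**Figure D5:**
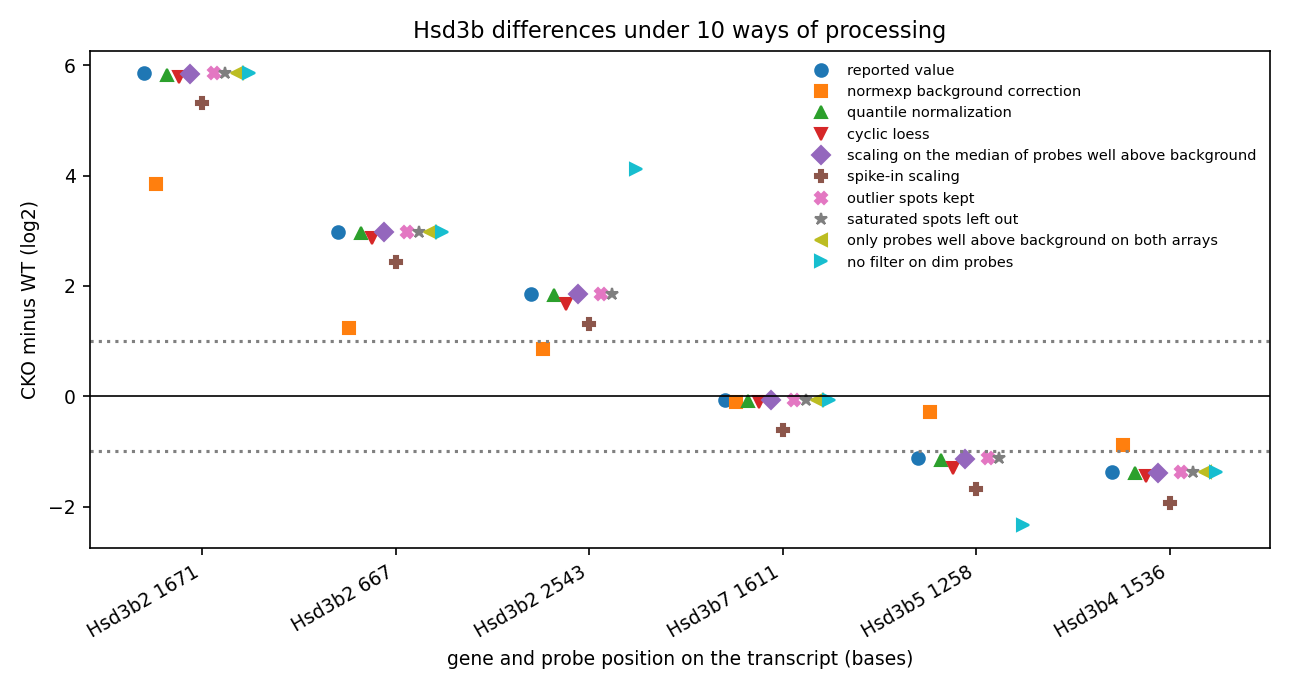
CKO minus WT difference on the log2 scale of the 6 measured Hsd3b probes under the reported processing and 9 alternatives, 1 marker each, with dotted lines at 2-fold; a probe measured on 1 array only has no marker under the filter that needs both arrays. All markers of Hsd3b2 lie above 0, from 0.85 to 5.85, and those of Hsd3b4 and Hsd3b5 below 0, from −2.33 to −0.29.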

How the data were processed

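Each deposited file gives linear spot intensity values of 1 one-colour Agilent array. They came, per the file headers, from Agilent Feature Extraction 10.7.3.1 with spatial and multiplicative detrending, from 1 slide and 1 scan, and probes were placed on mm9. Amplification started from 50 ng of RNA and the dye was Cy3, per the labels' protocols. How the authors normalized between arrays is not given in these sources.

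Control spots and outlier spots (66 and 73) were left out. The value computed here was log2 of the deposited processed signal minus the array's 75th percentile, averaged over spots of 1 probe. A probe counts as measured where it was well above background on at least 1 array. Taken array by array, 64.1% (WT) and 62.4% (CKO) of the spots other than controls were well above background. Measured on 1 array only, it has a bound, against the higher of its own dim signal and the lowest one well above background. In lists, a gene takes its measured probe of highest mean signal. A RefSeq table of GRCm38.p6 matched 26876 probes and served for names only. Members and lists were chosen with earlier results of these data known. Named are every Hsd3b probe, list genes at least 2-fold apart or otherwise up to 3 with the largest difference, defining markers on neither array, and neighbours. Gata2, Mc2r, Dbh, Pnmt, Sult2b1, Slc22a8, Cyp2j13, Star, Cyp17a1, Nr5a1, Kap, Tat, Sdr42e1, Phgdh, Notch2, Wars2 and the list genes measured on neither array were named after their values were seen. Some genes that the rule takes are not reported here. Steps were tested on simulated data with known changes. Alternatives were other background corrections, normalizations, scalings, filters and folds. The tools were limma 3.58.1 under R 4.3.3, and numpy 2.4.6, pandas 2.3.3 and matplotlib 3.10.9 under Python 3.11.15.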

Additional observations from a re-analysis of the deposited data

How the results depend on the processing

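No paired analysis was possible because each genotype had 1 array. Of the values of the Hsd3b probes and their counts, 59 stayed within the spot error or within 1.5 times under the alternatives and 13 moved, none with a change of sign. Many of the 59 could not move. Saturated spots numbered 0 on either array, and keeping outlier spots changed no Hsd3b value. A change of the filter on dim probes leaves a probe measured on both arrays as it was. The 59 is therefore no measure of stability. With normexp background correction the difference was 3.85 at the Hsd3b2 probe at position 1671, 1.25 at the Hsd3b2 probe at position 667, −0.88 at the Hsd3b4 probe at position 1536 and −0.29 at Hsd3b5, and the number at least 2-fold lower went from 2 to 0. With scaling on 8 spike-in transcripts, which moves the median of all probes to −0.49, these were 5.31 at position 1671, 2.44 at position 667, −1.93 at Hsd3b4 and −0.61 at Hsd3b7. With no filter on dim probes the measured values replace the bounds, 4.12 at the Hsd3b2 probe at position 2543 and −2.33 at Hsd3b5. The number at least 2-fold higher, 3 as reported, was 2 with normexp, 2 when only probes well above background on both arrays were used, and 4 with no filter. The number at least 2-fold lower was 1 when only probes well above background on both arrays were used, and 0 with 3-fold in place of 2-fold. With spike-in scaling all 18 list medians moved by over 0.27, the pooled standard deviation between probes of a gene. Of these medians 1 did so when probes of a gene were averaged and 2 did with no filter. The dim WT signals of Hsd3b2 limit its fold more than its direction, and having 1 array per genotype limits the precision of every value.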
